A study of Rattus norvegicus with 10 samples.

Results

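The 9 genes described here encode liver enzymes that break down amino acids. Hpd, Hgd, Tdo2, Cdo1 and Haao encode enzymes that need iron or heme at their active site, and Tat, Fah, Hal and Sds encode catabolic enzymes that work without iron. The genes were chosen by name, and all 9 are measured by 1 probe set each, of 31042 probe sets for 14217 named genes in all. They were compared in liver RNA of 5 male Sprague-Dawley rats fed an iron-deficient diet with 3 ppm iron (iron-deficient group) and of 5 male Sprague-Dawley rats given the control diet with 48 ppm iron by pair feeding (pair-fed group). Both groups were labelled as 5 weeks old, ate the experimental diet until day 3, and were killed at 1.5 h, counted after feeding in the study's methods and as the time of feeding in the labels. Each rat is 1 Affymetrix array, and signals are log2 values from the robust multiarray average (RMA), so that a difference of 1 is a doubling.

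Tyrosine is degraded in the hepatocyte by a short chain of enzymes. Tat (tyrosine aminotransferase) removes its amino group, Hpd (hydroxyphenylpyruvate dioxygenase) makes homogentisate and Hgd (homogentisate dioxygenase) opens the ring. After the product has been isomerised, Fah (fumarylacetoacetase) splits it into fumarate and acetoacetate. Tdo2 (tryptophan dioxygenase), a heme enzyme, starts the kynurenine route of tryptophan breakdown, and Haao (hydroxyanthranilate dioxygenase) opens the second ring later on the same route. Cdo1 (cysteine dioxygenase) oxidises cysteine on the way to taurine and sulfate. Hpd, Hgd, Haao and Cdo1 bind a non-heme iron atom. Hal (histidase) removes ammonia from histidine, and Sds (serine dehydratase) turns serine into pyruvate with a vitamin B6 cofactor, which feeds gluconeogenesis.

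None of the 5 iron or heme genes was up- or down-regulated in the iron-deficient group. Of the 4 genes without iron, Sds was up-regulated by the rank products method (false discovery rate 0.0344), although its mean was only 1.23-fold higher and the livers of both groups overlapped over most of their range. The other 3 genes without iron were not called. Rank products, the test that the study's methods name, ranks the probe sets by their difference in every pairing of rats across the diets, and a false discovery rate under 0.05 is a call. Over all probe sets it called 0.303% up-regulated and 0.561% down-regulated, so that the member count, 1 of 9 up and 0 of 9 down, rests on the single gene Sds. The moderated test of limma, which weighs the difference by the spread between rats, called 0 of 31042 probe sets at an adjusted p under 0.05, which is 0%. At an unadjusted p under 0.05 it had 6.98% of all probe sets and 0 of the 9 genes.

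Of the 9 genes, 3 had higher and 6 had lower means in the iron-deficient group. The median log2 fold change (iron-deficient minus pair-fed) was -0.03 over the 5 iron or heme genes and -0.11 over the 4 genes without iron, against 0.00 over all probe sets. Among all probe sets 91.8% had a log2 fold change smaller than 0.2 in either direction, and so did all 5 iron or heme genes and 7 of the 9 genes in all. Groups did not overlap in 0 of the 9 genes, against 1.29% of all probe sets.

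**Figure D1:**
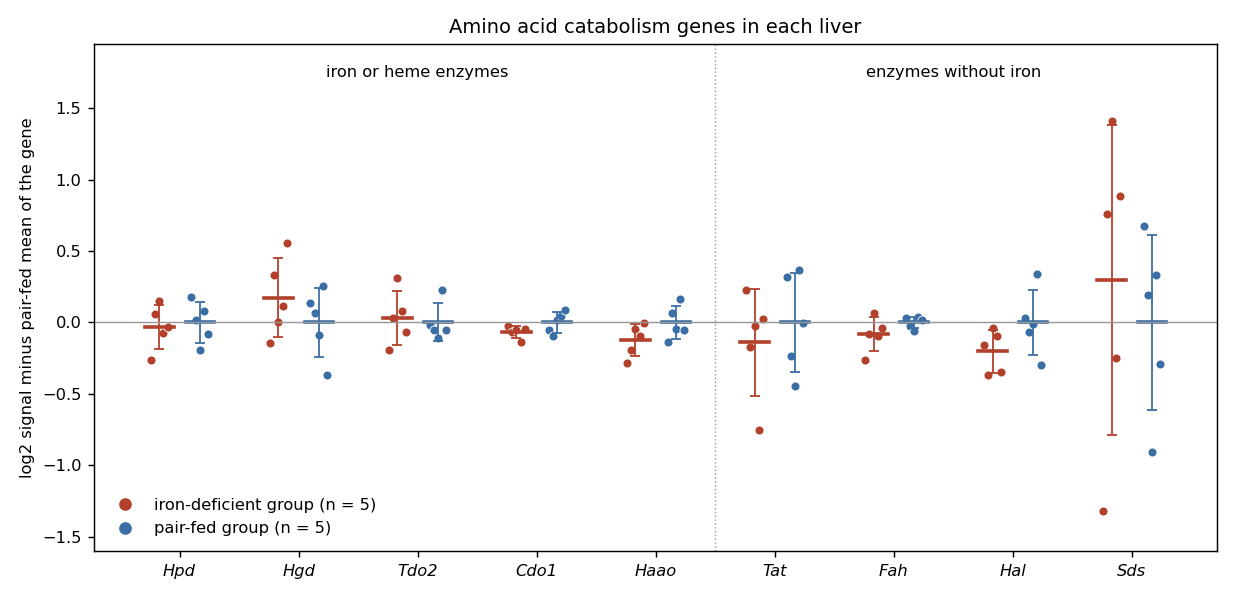
Log2 signal of each of the 9 genes in each rat, with the mean of the pair-fed group of that gene subtracted (vertical axis), for the iron-deficient group (left of each pair) and the pair-fed group (right); points are rats, thick lines are means and error bars are SD (n = 5 each). The groups overlap at every gene, and Sds spreads farthest, with an SD of 1.09 in the iron-deficient and 0.61 in the pair-fed group.

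In the tyrosine pathway, Tat had log2 signals of 11.08, 10.68, 10.83, 10.10 and 10.88 in iron-deficient replicates 1 to 5 and of 11.17, 10.62, 10.41, 11.22 and 10.85 in pair-fed replicates 1 to 5. Iron-deficient replicate 4 was the lowest of the 10 livers and pair-fed replicate 4 the highest. The log2 fold change was -0.14 (SE 0.189, 95% interval -0.55 to 0.27, limma adjusted p = 0.915). Tat is an enzyme known to be induced by glucocorticoids and by fasting, and it varied more between rats than 97.0% of all probe sets.

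Hpd, the iron enzyme of the next step, had log2 signals of 13.88, 14.20, 14.29, 14.07 and 14.11 in the iron-deficient group and of 14.32, 14.16, 13.95, 14.22 and 14.06 in the pair-fed group. The lowest liver was iron-deficient replicate 1, the highest pair-fed replicate 1, and the means of 14.11 ± 0.16 and 14.14 ± 0.14 (SD, n = 5 each) lay within the spread of either group. The log2 fold change was -0.03 (95% interval -0.23 to 0.16), or 0.978-fold with an interval of 0.853-fold to 1.12-fold.

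Hgd, the following iron dioxygenase, had 11.16, 11.64, 11.31, 11.42 and 11.86 in the iron-deficient group and 11.44, 11.37, 11.22, 11.56 and 10.94 in the pair-fed group. Iron-deficient replicates 5 and 2 were above every pair-fed liver, and the other 3 fell among them. Its log2 fold change of 0.17 (SE 0.140, 95% interval -0.13 to 0.47, limma adjusted p = 0.839) was the farthest from 0 of the 5 iron or heme genes. An exact permutation test on the 2 groups of 5, 2-sided, gave p = 0.349.

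Fah, which ends the pathway without iron, averaged 12.79 ± 0.12 in the iron-deficient group and 12.87 ± 0.04 in the pair-fed group (SD, n = 5 each). Its log2 signals were 12.61, 12.79, 12.94, 12.78 and 12.83 in the iron-deficient group and 12.90, 12.85, 12.81, 12.91 and 12.89 in the pair-fed group. Iron-deficient replicates held both the lowest liver, replicate 1, and the highest, replicate 3. The log2 fold change was -0.08 (95% interval -0.23 to 0.06). Across the pathway, Tat, Hpd and Fah were thus slightly lower and Hgd slightly higher in the iron-deficient group, with an interval that spanned 0 for each.

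Tdo2, the heme enzyme of tryptophan, had log2 signals of 13.66, 13.88, 14.16, 13.93 and 13.78 in the iron-deficient group and of 13.83, 13.80, 13.74, 14.08 and 13.80 in the pair-fed group. The iron-deficient livers again enclosed the pair-fed livers, with replicate 1 lowest and replicate 3 highest. Its log2 fold change was 0.03 (95% interval -0.18 to 0.24), or 1.02-fold with an interval of 0.886-fold to 1.18-fold. Haao, farther along the kynurenine route, had 11.61, 11.70, 11.85, 11.80 and 11.89 in the iron-deficient group and 11.76, 11.96, 11.85, 12.06 and 11.84 in the pair-fed group. Here 2 iron-deficient livers, replicates 1 and 2, lay below every pair-fed liver and none lay above. The log2 fold change of Haao was -0.12 (SE 0.0762, 95% interval -0.29 to 0.04, limma adjusted p = 0.783), and the exact permutation test, 2-sided, gave p = 0.127 for 5 rats against 5.

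Cdo1, the iron enzyme of cysteine, was the steadiest of the 9 genes. It had log2 signals of 14.19, 14.15, 14.16, 14.08 and 14.17 in the iron-deficient group and of 14.16, 14.12, 14.23, 14.26 and 14.30 in the pair-fed group. Only 2.4% of all probe sets had a smaller SD within groups. Its mean signal was above that of 99.8% of all probe sets, as were those of Hpd and Tdo2. Whether signals this high narrow the spread on these arrays was not tested. The log2 fold change of Cdo1 was -0.06 (95% interval -0.19 to 0.06), or 0.956-fold with an interval of 0.877-fold to 1.04-fold, the narrowest interval of the 9 genes. All 5 iron-deficient livers lay below the pair-fed median, and 6 of the 25 pairs of rats had the higher value in the iron-deficient rat.

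Hal had the lowest log2 fold change of the 9 genes, -0.20 (SE 0.110, 95% interval -0.44 to 0.04, limma adjusted p = 0.758). Its log2 signals were 11.00, 10.79, 11.12, 11.06 and 10.81 in the iron-deficient group and 11.19, 11.09, 11.15, 11.50 and 10.86 in the pair-fed group. Every iron-deficient liver was below the pair-fed median of 11.15, and iron-deficient replicates 2 and 5 were below all pair-fed livers. The exact permutation test, 2-sided, gave p = 0.127 for 5 against 5, where the smallest p that can be reached is 0.00794.

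**Figure D2:**
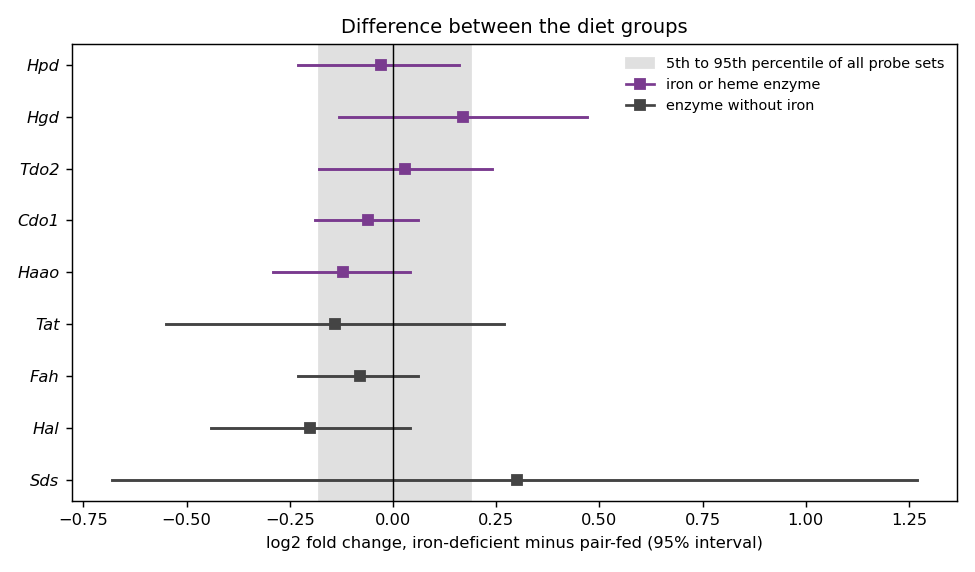
Log2 fold change of each gene, iron-deficient minus pair-fed (horizontal axis), with its 95% interval from limma as a line; purple marks iron or heme enzymes, dark grey enzymes without iron, and the light band runs from the 5th to the 95th percentile of all probe sets, -0.18 to 0.19. All 9 intervals cross 0, and Sds has the widest, -0.68 to 1.27.

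Sds was the one gene called, and the one with the largest spread. The log2 signals were 9.41, 11.49, 12.14, 10.48 and 11.61 in the iron-deficient group and 11.40, 10.92, 9.82, 11.06 and 10.44 in the pair-fed group. Iron-deficient replicates 2, 3 and 5 were above every pair-fed liver, replicate 1 was below every pair-fed liver, and replicate 4 fell among the lower ones. The means were 11.03 ± 1.09 in the iron-deficient group and 10.73 ± 0.61 in the pair-fed group (SD, n = 5 each), a log2 fold change of 0.30 (SE 0.450, 95% interval -0.68 to 1.27). The medians, 11.49 and 10.92, differed by 0.57. From the lowest to the highest liver Sds spanned 6.64-fold within the iron-deficient group and 2.99-fold within the pair-fed group, and 99.7% of all probe sets varied less within groups. For Sds limma gave an adjusted p = 0.924, and the exact permutation test, 2-sided, gave p = 0.579 for 5 against 5.

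Single pairs of rats show how far Sds varied. Its signal was higher in the iron-deficient rat in 17 of 25 pairs. The difference was among the 310 highest of all probe sets (the top 1%) in 10 pairs, and among the 310 lowest in 5 pairs. Hgd was among the highest in 2 pairs, Tat among the lowest in 3 and Hal among the lowest in 2, and the remaining 5 genes in 0 pairs at either end. When the arrays were dropped singly, Sds stayed past the threshold in 5 of 10 cases. Without iron-deficient replicate 3 the log2 fold change fell to 0.02 (false discovery rate 0.356), without replicate 2 it was 0.18 (0.175) and without replicate 5 it was 0.15 (0.218). Without pair-fed replicate 3 it was 0.07 (0.185) and without pair-fed replicate 5 it was 0.22 (0.0687). Without iron-deficient replicate 1 it was 0.70 (0.00906), and without iron-deficient replicate 4 or pair-fed replicate 1 it was 0.43 and 0.47.

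**Figure D3:**
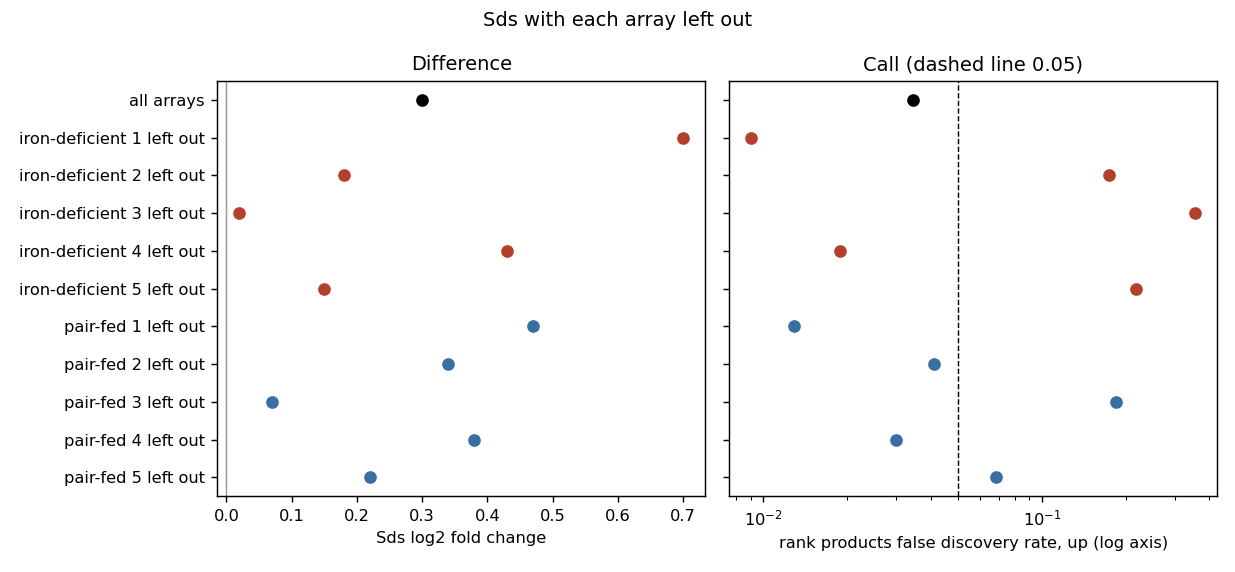
Sds with all arrays (black) and with each array left out in turn (red, iron-deficient arrays; blue, pair-fed arrays): log2 fold change on the left and rank products false discovery rate for up-regulation on the right, on a log axis, with 0.05 dashed. The log2 fold change runs from 0.02 to 0.70, and 5 of the 10 settings lie left of the dashed line.

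Iron-deficient replicate 1 held the lowest value of the 10 livers for 5 of the 9 genes, namely Hpd, Tdo2, Haao, Fah and Sds, and pair-fed replicate 4 was above the mean of all livers for all 9. Iron-deficient replicate 1 also stood apart over all probe sets. Its mean correlation with the other arrays was 0.9915, against 0.9935 to 0.9941 for the others, and its 3′ minus 5′ log2 difference of the GAPDH control probe sets, a measure of RNA integrity, was 0.36, against -0.05 to 0.11. For the beta-actin control probe sets the same 3′ minus 5′ difference was 1.74 in iron-deficient replicate 1, against 1.08 to 1.33 in the others. The paper reports a high RNA integrity number for the RNA of each liver, and the cause of the GAPDH and beta-actin differences was not tested. Without iron-deficient replicate 1 the log2 fold change of Sds was 0.70 as above. With any single array dropped, Hgd was at 0.07 to 0.25, Haao at -0.16 to -0.08 and the median of the 5 iron or heme genes at -0.07 to 0.03.

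The genes were also compared with each other from rat to rat, after the mean of each diet group had been subtracted from its values. Over 36 pairs of genes and 10 rats, Sds varied with Hpd (Pearson's r = 0.94, permutation p = 6e-05, adjusted p = 0.00216; Spearman's rho = 0.90, permutation p = 0.00091, adjusted p = 0.0328) and with Fah (r = 0.90, permutation p = 0.00022, adjusted p = 0.00396; rho = 0.87, permutation p = 0.00196, adjusted p = 0.0353). Hpd and Fah, both of the tyrosine pathway, were correlated as well (r = 0.81, permutation p = 0.00199, adjusted p = 0.0239), but less clearly by rank (rho = 0.67, permutation p = 0.0385, adjusted p = 0.346). The other 33 pairs did not pass, with r from -0.30 for Hgd and Cdo1 to 0.80 for Tdo2 and Fah, and 29 of the 36 were above 0. Sds changed far more than Hpd from rat to rat: the SD within groups was 0.88 for Sds, 0.15 for Hpd and 0.09 for Fah.

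Without the 2 rats farthest from the median of the gene named first, r was 0.85 for Hpd and Sds, 0.74 for Fah and Sds, and 0.55 for Hpd and Fah. Without iron-deficient replicate 1, which was chosen after the values were seen, r was 0.91 for Hpd and Sds (exact permutation p = 0.00032, adjusted p = 0.0115, 9 rats), 0.77 for Fah and Sds (adjusted p = 0.128 from the same exact test) and 0.67 for Hpd and Fah (adjusted p = 0.202 from the same exact test). The relation of Hpd and Sds therefore passed in either set. Those of Fah and Sds and of Hpd and Fah passed only with that array. Without it r rose from 0.25 to 0.87 for Tat and Sds (adjusted p = 0.0657 from the same exact test). It rose from 0.29 to 0.74 for Hpd and Tat and from 0.07 to 0.72 for Tat and Fah (adjusted p = 0.151 each, same test). These did not pass, and r of Tat did not rise with Cdo1 (0.46 to 0.41) or Hal (0.19 to 0.18).

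**Figure D4:**
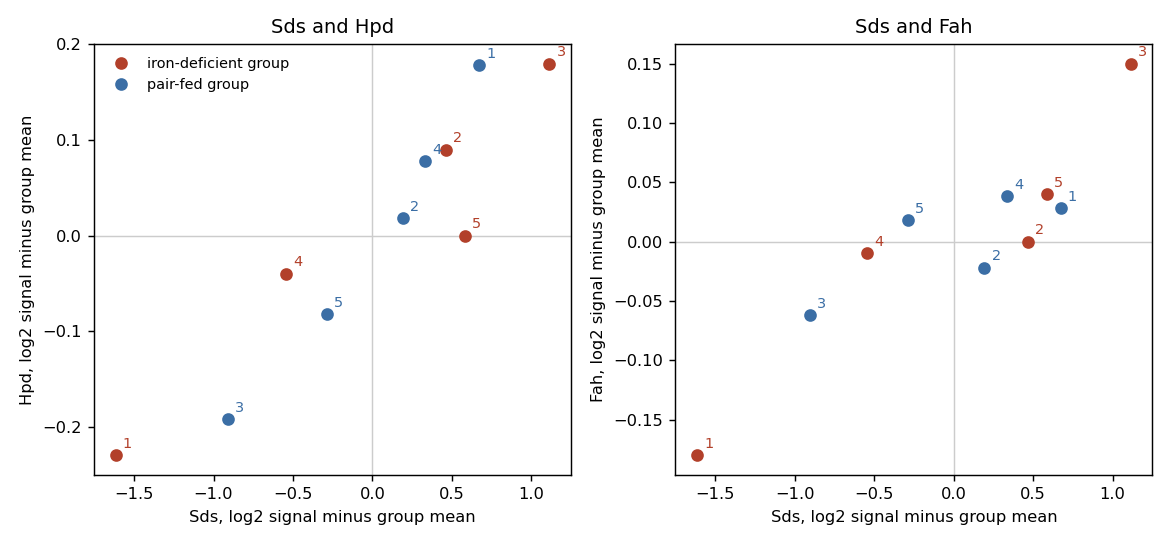
Sds (horizontal axis) against Hpd (left panel) and Fah (right panel), each as log2 signal minus the mean of its diet group; points are rats, numbered by replicate, red for the iron-deficient and blue for the pair-fed group. Livers with more Sds had more Hpd (r = 0.94), and iron-deficient replicate 1 is at the lower left of both panels.

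Of 12277 probe sets with 1 gene and a mean above the median of all, those most like Sds over the 10 rats were Acy1, an aminoacylase (r = 0.96), Mccc2, a subunit of methylcrotonyl-CoA carboxylase in leucine breakdown (r = 0.96), Cops4, a subunit of the COP9 signalosome (r = 0.95), the locus LOC100909782 (r = 0.95) and Hpd (r = 0.94). All 5 had log2 fold changes between the groups of -0.14 to 0.05. Those most like Hgd were Mgst1, a microsomal glutathione transferase (r = 0.96), Cops7b, of the COP9 signalosome (r = 0.95), Atp5me, a subunit of ATP synthase (r = 0.94), Gckr, the glucokinase regulatory protein (r = 0.91), and Lpar6, a lysophosphatidic acid receptor (r = 0.90). They are the highest of many values and carry no test.

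The promoters of Hpd and Fah are printed here because these genes were correlated with Sds over the 10 rats. For Fah the adjusted p was under 0.05 only with iron-deficient replicate 1 included, and r was 0.77 without it. The promoter of Tdo2 is printed to show the gene of the heme enzyme. Promoters, from RefSeq, were matched for 6 of the 9 genes, namely Hpd, Hgd, Tdo2, Haao, Tat and Fah. Each covers 250 bases before and 50 after the start of the gene, and capitals mark matches to any of the motifs that follow, on either strand.
Hpd (GRCr8 chr12:39041996-39042295, plus strand): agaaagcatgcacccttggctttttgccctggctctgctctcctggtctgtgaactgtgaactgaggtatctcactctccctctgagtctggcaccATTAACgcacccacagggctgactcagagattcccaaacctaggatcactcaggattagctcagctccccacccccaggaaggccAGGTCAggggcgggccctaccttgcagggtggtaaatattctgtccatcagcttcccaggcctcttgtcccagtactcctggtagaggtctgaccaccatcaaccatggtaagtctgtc
Fah (GRCr8 chr1:147980556-147980855, minus strand): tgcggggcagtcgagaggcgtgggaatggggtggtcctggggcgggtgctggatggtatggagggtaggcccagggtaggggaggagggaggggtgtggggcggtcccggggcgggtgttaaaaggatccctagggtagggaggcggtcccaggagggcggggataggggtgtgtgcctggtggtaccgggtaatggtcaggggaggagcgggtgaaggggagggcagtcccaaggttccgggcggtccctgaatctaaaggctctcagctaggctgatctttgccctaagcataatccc
Tdo2 (GRCr8 chr2:169585537-169585836, minus strand): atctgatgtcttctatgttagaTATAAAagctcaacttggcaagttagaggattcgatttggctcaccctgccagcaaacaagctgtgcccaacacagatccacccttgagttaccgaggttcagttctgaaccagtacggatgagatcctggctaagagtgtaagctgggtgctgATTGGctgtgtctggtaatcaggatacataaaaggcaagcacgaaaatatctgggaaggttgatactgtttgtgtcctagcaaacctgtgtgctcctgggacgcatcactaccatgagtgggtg

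The motifs searched on both strands were TATAAA, a core promoter element, CCAAT, which NF-Y binds, TGTTCT, known from glucocorticoid response elements, TGACGTCA, the cyclic AMP response element, GTTAAT, part of HNF1 sites, and AGGTCA, which many nuclear receptors bind. They do not overlap in the promoters shown. Hpd held GTTAAT on the reverse strand at position -154 from the start and AGGTCA at -69. Tdo2 held TATAAA at -228 and CCAAT on the reverse strand at -74, and Fah held 0 of the 6. Among the 6 promoters CCAAT was present in 3 and AGGTCA in 3, against 37.5% and 16.2% of all 33469 promoters. TGTTCT was present in 1 (all promoters, 20.7%), TATAAA in 1 (14.2%), GTTAAT in 1 (7.45%) and TGACGTCA in 0 (1.83%). A match is a run of letters and not a measured site.

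Around the 9 genes, 61 further genes of amino acid breakdown were measured, in 7 lists that share some genes. Of these, 2 were up-regulated and 0 down-regulated by rank products, against 0.303% and 0.561% of all probe sets, 35 were higher and 26 lower in the iron-deficient group, and the median log2 fold change was 0.02. The 2 up-regulated genes were both on the list of sulfur amino acid breakdown, on which 8 of 12 genes were higher and 4 lower with a median of 0.21, while Cdo1 of the same pathway was at -0.06. Sqor, which oxidises hydrogen sulfide in mitochondria, had log2 signals of 10.28, 8.97, 9.15, 8.61 and 11.21 in the iron-deficient group and of 8.66, 8.72, 8.38, 9.60 and 9.14 in the pair-fed group. Its difference of 0.74 (SE 0.425, false discovery rate 0.00833) came with 2 high livers, iron-deficient replicates 5 and 1. With arrays dropped singly it was called in 8 of 10 cases, and was not called without iron-deficient replicate 1 (0.58) or 5 (0.35). Bhmt, which remethylates homocysteine from betaine, had 12.71, 13.30, 13.79, 13.45 and 13.23 in the iron-deficient group and 12.41, 13.22, 12.56, 13.07 and 12.89 in the pair-fed group. Its log2 fold change was 0.46 (SE 0.192, false discovery rate 0.0420), with 4 iron-deficient livers above all pair-fed livers, and it was called in 4 of those 10 cases, but not without iron-deficient replicate 2, 3, 4 or 5 or pair-fed replicate 1 or 3 (0.34 to 0.48).

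The 2 enzymes that make cysteine from homocysteine, Cbs and Cth, were not called. Cbs was at 0.32 (SE 0.0906, false discovery rate 0.262, limma adjusted p = 0.601) and Cth at 0.43 (SE 0.0891, false discovery rate 0.0653, limma adjusted p = 0.494). Cth was higher in all 5 iron-deficient livers, at 11.61 to 11.96, than in any pair-fed liver, at 11.21 to 11.58. The groups did not overlap for Cbs either, at 10.49 to 10.76 in the iron-deficient and 10.06 to 10.47 in the pair-fed livers. Among all probe sets, the groups did not overlap in 1.29%. Without pair-fed replicate 1 Cth was called (0.49, false discovery rate 0.0451). Cbs and Cth are named here after their values were seen.

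No gene was called on the remaining lists. Of 5 other iron or heme enzymes of amino acid breakdown 2 were higher and 3 lower. Suox, a heme and molybdenum enzyme that oxidises sulfite, was at 0.22 and Ethe1, an iron dioxygenase of persulfides, at -0.06. On the tyrosine list Got1, an aspartate aminotransferase, and Gstz1, which isomerises maleylacetoacetate, were at 0.21 and 0.06. Of 9 genes of the kynurenine route 4 were higher and 5 lower, with Gcdh (glutaryl-CoA dehydrogenase) at -0.18 and Kynu (kynureninase) at 0.16. On the histidine list Ftcd, which takes over the formimino group, was at -0.18 and Uroc1, the urocanase that follows Hal, at 0.11. For serine, threonine and glycine 9 of 11 were higher, with Agxt2 at 0.25 and Gldc, of the glycine cleavage system, at 0.23, and Sdsl, the gene most related to Sds, was at 0.11 (SE 0.143). On the list of other amino acids, Gpt (alanine aminotransferase) was at -0.24, and Bckdhb, of branched-chain keto acid breakdown, and Aldh4a1, of proline breakdown, were at 0.20 each.

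Regulators and cell types were read from lists as well. Of 11 measured hormone-related and liver transcription factor genes 0 were called, with Ppargc1a, a coactivator of gluconeogenesis genes, at 0.31 (SE 0.143) and Onecut1 at 0.29 (SE 0.534). With arrays dropped singly Ppargc1a was at 0.17 to 0.37. Onecut1 was at -0.11 without iron-deficient replicate 2 and was called without iron-deficient replicate 3 (0.61) and without pair-fed replicate 3 (0.56) or 5 (0.51). Hepatocyte markers had a median log2 fold change of 0.00 over 9 genes and list means of 14.44 to 14.52 in the iron-deficient and 14.41 to 14.50 in the pair-fed livers. Sds and Hal are enzymes of the periportal zone of the liver lobule. Of 13 listed periportal markers 11 were matched to a probe set. Those left out were Sox9 and G6pc, and the paper reports G6pc as up-regulated. Of the 11 periportal markers 10 were higher and 1 lower, with a median of 0.08, and 1, Aldh1b1 (0.68), was up-regulated, against 0.303% of all probe sets. Of 13 pericentral markers 6 were higher and 7 lower, with a median of -0.01, and 3 were down-regulated, against 0.561% of all probe sets. Among them Cyp7a1 was at -0.95, and at -0.57 without iron-deficient replicate 1, and Slc1a2 was at -0.64 and not called without pair-fed replicate 5 (-0.49). Glul was at -0.47 and not called without iron-deficient replicate 2 or pair-fed replicate 1, 2, 3 or 5 (-0.49 to -0.40). Other markers of that zone, such as Cyp2e1 (-0.07), Cyp1a2 (-0.01) and Rgn (0.09), were not called. Of 9 erythroid markers 7 were down-regulated, against the same 0.561%, with list means of 6.90 to 7.44 in the iron-deficient and 7.36 to 8.24 in the pair-fed livers. On the lists of Kupffer cells, endothelium, bile duct, and T cells, NK cells and neutrophils 0 genes were called. Of 8 Kupffer cell markers 1 was higher and 7 were lower, with a median of -0.15. Of 9 stellate cell markers 8 were higher and 1 was lower, with a median of 0.19. Among these 9, Lum was up-regulated (0.78), against 0.303% of all probe sets, but not without iron-deficient replicate 1 (0.54). Its mean signals, 5.11 in the iron-deficient and 4.33 in the pair-fed group, lay below the array medians of 6.19 to 6.22. Col1a1 (0.46) was called only without iron-deficient replicate 2 (0.63) or pair-fed replicate 3 (0.60). In whole liver a change in the share of a cell type and a change of RNA per cell cannot be told apart, and the part of these markers in the values of the 9 genes was not tested.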

How the data were processed

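Liver RNA of 10 rats was hybridised to 1 GeneChip Rat Genome array each, with 1 colour. The deposited values are log2 signals that the authors computed from the scanned arrays by RMA, which corrects background, normalizes the arrays to each other and summarises the probes of a probe set. Medians of the arrays were 6.19 to 6.22, and no further normalization was applied. Quantile normalization would hide a shift shared by most genes. The field for the source of the control samples names the iron-deficient diet, while their title and treatment name the control diet, which was followed.

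Of 31099 probe sets 57 controls were left out. The platform annotation pairs 20826 of the remaining 31042 with 1 gene, 436 with several and 9780 with none. Each of the 9 genes has 1 probe set paired with it alone. Older symbols were looked up in a RefSeq gene table of GRCr8. The brightest probe set stood for a listed gene.

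Rank products over 25 pairs of arrays used 100 permutations of the values within each array and a fixed seed (numpy 2.4.6, scipy 1.17.1, pandas 2.3.3 and matplotlib 3.10.9 under Python 3.11.15). Fold changes, standard errors and 95% intervals came from limma 3.58.1 in R 4.3.3, adjusted after Benjamini and Hochberg for the 31042 probe sets. Single probe sets were compared by exact permutation tests, and correlations by permutation tests with 100000 resamples, 2-sided, adjusted over the 36 pairs. The replicates are separate rats, and their number limits the precision. The 9 genes and the lists were chosen with earlier results of these data known, among them the study's own selection on these arrays, which holds Sds, Bhmt and Sqor, so that their calls are not independent evidence. The genes named are the 9, the genes of each other catabolism list past the rank products or else the 2 with the largest change, and the 5 genes most like Hgd and Sds. Genes named outside this rule are Sdsl, Cbs and Cth, the 2 named regulators and the named markers. Bckdhb and Aldh4a1 tie at 0.20 and are both named, so that 1 of them is outside the rule too. Alternatives were the rank sum, limma, array weights, a filter on dim probe sets, probe sets of 1 gene only, median centring, a replicate block and each array left out.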

Additional observations from a re-analysis of the deposited data

Results flagged for a closer look

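Tdo2 in pair-fed replicate 4 had a log2 signal of 14.08, while the other 4 pair-fed livers lay at 13.74 to 13.83. The gap to the nearest of them was 0.739 of the range of the group, above the critical value of Dixon's test for 5 values. This was 1 of 22 groups of 5 livers examined (the 9 genes, Sqor and Bhmt, in 2 diet groups), and chance marks about 1 in 20. The same liver had the highest Tat, Haao and Hal of all 10.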

How the results depend on the processing

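Of the 9 genes 1 was up-regulated with all arrays, and this count was 0 with the rank sum, 0 with limma and 0 with limma and array weights; it was 0 to 1 with each array left out, and 0 genes were down-regulated in every setting run. The count over all probe sets, 94 up-regulated and 174 down-regulated, was 5 and 29 with the rank sum, 55 and 110 with dim probe sets left out, 0 and 0 with limma, 0 and 0 with limma and array weights, and 47 to 101 and 90 to 188 with each array left out. Of the 61 other catabolism genes 2 were up-regulated, and this count was 0 with the rank sum, 0 with limma, 0 with limma and array weights, 1 with dim probe sets left out and 0 to 2 with each array left out. With dim probe sets left out fewer were tested, and the cause of the other differences was not tested. Array weights gave Hpd a log2 fold change of 0.00, where it had been -0.03, and Sds one of 0.54, where it had been 0.30. With each array left out Hpd was at -0.08 to 0.03, Tdo2 at -0.04 to 0.09, Tat at -0.25 to 0.01, Hal at -0.28 to -0.12 and Sds at 0.02 to 0.70, and the medians were at -0.07 to 0.03 for the iron or heme genes and -0.15 to -0.03 for those without iron. The correlations were run again without iron-deficient replicate 1, an alternative chosen after seeing the data.

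The replicate numbers showed no pairing of the rats: deviations of same-numbered arrays had correlations of -0.04 to 0.09, and 1 of 5 iron-deficient arrays correlated best with its own number. With a replicate block, the counts were 85 up-regulated and 149 down-regulated over all probe sets, 1 and 0 among the 9 genes (Sds, false discovery rate 0.0182), and 1 and 0 among the 61 other catabolism genes.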
